A study of Mus musculus with 9 samples.

Results

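The 6 lungs given copper oxide (CuO) nanoparticles, with or without TTM, were pooled and set against the 3 control lungs. They are 6 of the 9 libraries of the study and were chosen by their labels alone, not by any measured value. All mice were C57BL/6J, an inbred laboratory strain, and the lungs were taken on day 7. Mice of the CuO group (n = 3) received 100 µl of the particles at 2 mg/mL in sterile saline once into the trachea. Mice of the CuO_TTM group (n = 3) received the same particles, with TTM at 0.02 mg/mL in their daily drinking water. The labels do not spell TTM out. Control mice (n = 3) received 100 µl of sterile saline and no TTM. No group received TTM without particles, so what TTM does in a lung without particles cannot be told apart here. The comparison asks which RNAs of the lung differed from control in both exposed groups alike.

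Copper oxide particles that reach the lung are taken up by macrophages, in whose acid lysosomes they release copper ions. Repair of an injured lung brings dividing cells, fibroblasts that lay down collagen and elastin, and macrophages that derive from blood monocytes and clear lipid and debris. Complement C1q, made by macrophages, tags dying cells for uptake, and Trem2 is a lipid receptor of such macrophages. Club cells of the small airways secrete the protein Scgb1a1 and carry many of the enzymes that detoxify foreign compounds.

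Poly(A)-selected RNA of whole lung was measured, with 1 mouse per library. The values are TPM, a transcript abundance that divides by transcript length and is scaled to the same total in every library, so the sequencing depth behind a value is unknown. The alveolar type 2 cell gene Sftpc ran from 17957 to 76791 TPM over the 9 libraries, which marks each of them as lung. CuO replicate 1 stood apart from the rest, with Pearson correlations to the other libraries of 0.864 to 0.901 and a median log2 level 0.44 below the control mean. In CuO_TTM replicates 2 and 3 the club cell gene Scgb1a1 made up 0.180% and 0.353% of all TPM, and in the other 4 exposed libraries 6.90% to 12.3%. It made up 17.3% to 22.5% in the control libraries, and because TPM sum to a fixed total this share bears on the level of every other gene.

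Of 15487 genes tested, 50 were higher in the exposed lungs (0.323%) and 4 were lower (0.0258%) at an adjusted p of at most 0.05 (limma on log2(TPM + 1), the mean of the CuO and CuO_TTM group means minus the control mean). In CuO alone against control, limma called 0 genes, with 1231 at an unadjusted p under 0.05. In CuO_TTM alone against control it called 294. Both use the same 3 control libraries. All 6 exposed libraries lay above all 3 control libraries for 1082 genes (6.99%) and below them for 279 (1.8%). The median difference over all tested genes was 0.14, so most genes lay slightly higher in the exposed lungs, 10069 of them with a positive difference. Scaling changed the balance of the calls: 134 higher and 60 lower after quantile normalization, 83 and 30 after median-ratio scaling, and 23 and 6 with TPM rescaled without Scgb1a1. These scalings brought the median to -0.02, 0.00 and -0.05. They also took away the excess of genes above control over genes below it. After quantile normalization 731 genes lay above in all 6 exposed libraries and 739 below. The counts were 731 and 735 after median-ratio scaling, and 555 and 637 without Scgb1a1.

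The number of calls also turned on single libraries. Without CuO replicate 1, the library that stood apart, 1177 genes were higher and 90 lower, and all 54 calls were among them. There were 84 higher and 22 lower without CuO_TTM replicate 1. Fewer were called without any of the others: 11 and 0 without CuO replicate 2, 3 and 1 without CuO replicate 3, and 3 and 0 without CuO_TTM replicate 3. None were called without CuO_TTM replicate 2 or without control replicate 2, with 1579 and 1385 genes at an unadjusted p under 0.05. Without control replicate 1 the calls were 2 and 0, and without control replicate 3 they were 4 and 2. Without both CuO_TTM replicates 2 and 3, the libraries low in Scgb1a1, 0 genes were called and 1280 had an unadjusted p under 0.05, with 0.296 as the smallest adjusted p. Over 23 alternative settings of libraries, scaling and fit, the calls of the named genes held in 8 (C1qc) to 18 (Ighg2b), with 9 for Gstm1 and Tyms, 13 for Inmt, 14 for Trem2 and Cdk1 and 16 for Col1a1. The 23 include a minimum log2 difference of 1, which could remove none of the 54 calls.

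**Figure D1:**
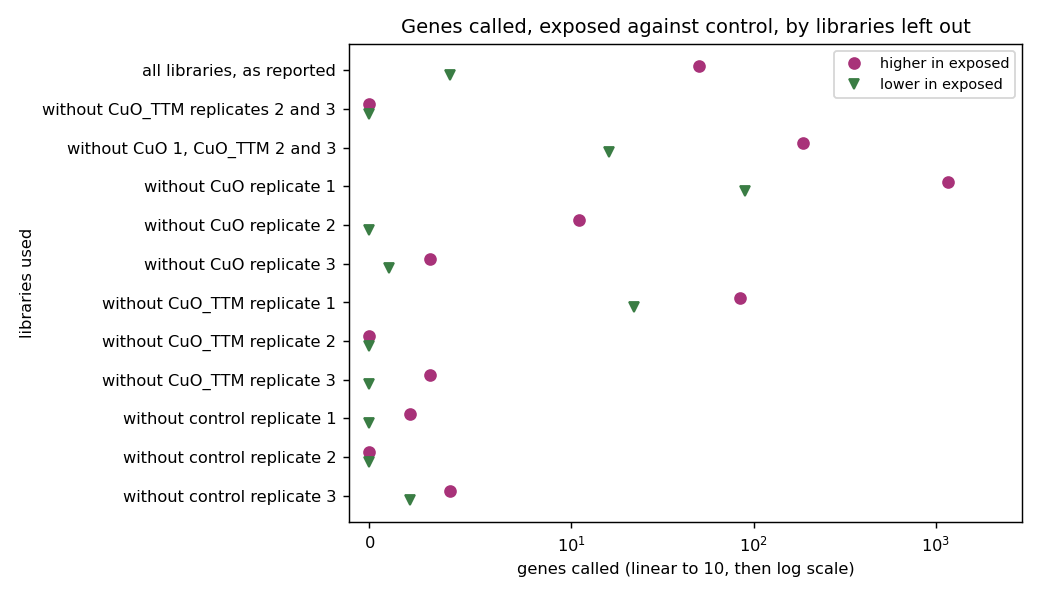
Number of genes called higher (circles) and lower (triangles) in exposed than in control lungs, on an axis that is linear to 10 and logarithmic beyond, for all libraries and with the named libraries left out. All libraries give 50 and 4, and leaving out a single library gives between 0 and 1177 higher and between 0 and 90 lower.

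Among the genes called higher were genes of cell division, type I collagen, macrophages, complement and antibodies, besides single genes such as Igf1 and Slc26a4. Of the 54 called, 11 lie on the lists of mitosis and DNA replication. A methyltransferase, a glutathione transferase and a fatty acid carrier were called lower. For 53 of the 54 called genes all 6 exposed libraries lay on the same side of all 3 control libraries. The exception was the antibody gene Iglc1. Among the 44 called higher that are not antibody genes, the CuO group alone was higher than control by at least 0.88 and the CuO_TTM group by at least 1.34 on the log2 scale. The genes were selected on the mean of these same 2 differences, and both use the same controls, so this describes the selected genes and adds no support.

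**Figure D2:**
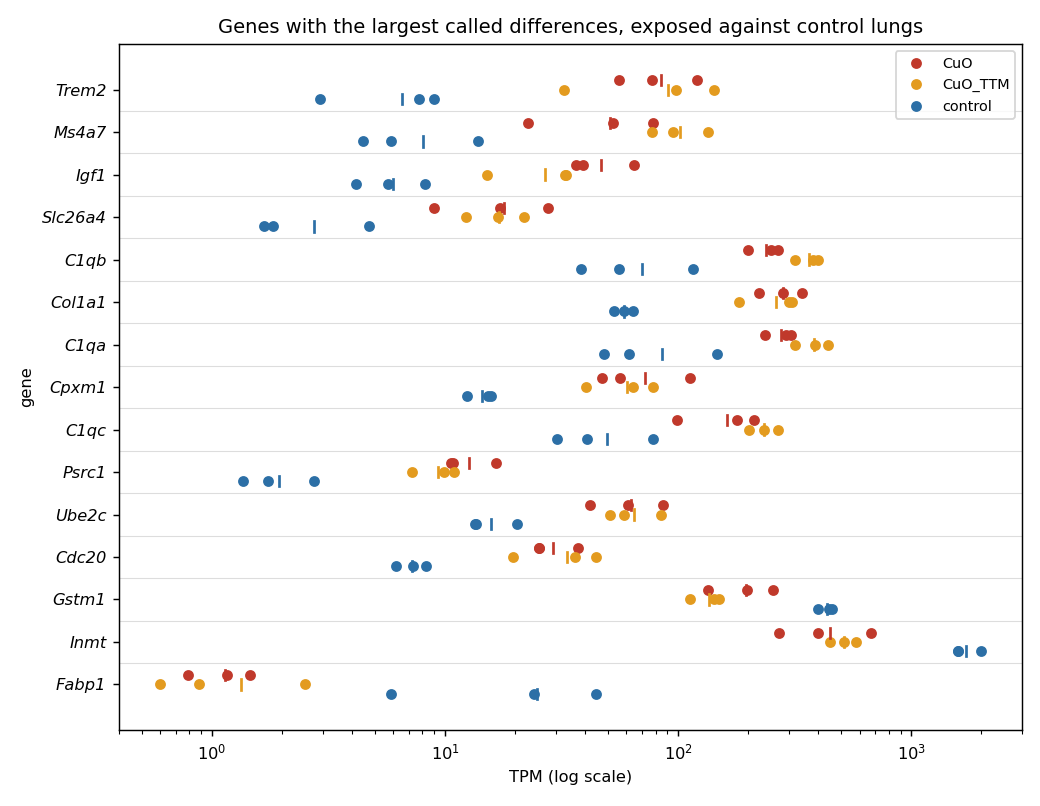
TPM on a logarithmic axis in each library for the 12 called genes with the largest rises when antibody genes are left out and the 3 named genes called lower, with CuO points above CuO_TTM points above control points in each row and a tick at each group mean. In each of the 15 genes the exposed points all lie on the same side of the control points.

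The largest rises outside the antibody genes were those of macrophage genes. Trem2 (ENSMUSG00000023992) had 55.7, 77.2 and 120.1 TPM in CuO lungs and 32.4, 142 and 97.6 TPM in CuO_TTM lungs, against 2.92, 7.76 and 8.97 TPM in control lungs. Every exposed lung lay well above the highest control, and the difference was 3.51 ± 0.49 on the log2 scale (SE, limma adjusted p = 0.0311). Ms4a7, a membrane protein of tissue macrophages, had 22.7, 78.2 and 52.5 TPM in CuO lungs, 94.8, 134 and 77.4 TPM in CuO_TTM lungs and 4.43, 5.89 and 13.9 TPM in control lungs. It was higher by 3.05 ± 0.43 (adjusted p = 0.0313, limma), and its lowest exposed value was that of CuO replicate 1. The tissue was whole lung, so more cells of a type and more RNA per cell cannot be told apart, here or below.

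The 3 chains of complement C1q rose together with them. C1qb had 199, 249 and 267 TPM in CuO lungs and 379, 399 and 318 TPM in CuO_TTM lungs, against 38.4, 56.0 and 116 TPM in control lungs. C1qa had 235, 305 and 290.1 TPM in CuO lungs, 387, 441 and 317 TPM in CuO_TTM lungs and 48.3, 61.7 and 146 TPM in control lungs. Control replicate 3 was the highest of the controls for each chain and still lay below every exposed lung. The differences were 2.20 ± 0.32 for C1qb, 2.07 ± 0.33 for C1qa and 2.03 ± 0.34 for C1qc (limma adjusted p = 0.0344, 0.0424 and 0.0476). Properdin, encoded by Cfp, which stabilises the alternative complement pathway, was higher by 1.44 ± 0.22 (adjusted p = 0.0369, limma). Of the 18 complement genes tested these 4 were called higher and 0 were called lower, 2 had a negative difference, and the median difference was 0.58 against 0.14 over all genes.

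Of 22 genes of lipid-laden macrophages, a state in which macrophages store lipid and remodel tissue, 3 were called higher and 0 lower, and 12 lay above control in all 6 exposed lungs. The called genes were Trem2, the fatty acid carrier Fabp5 and the galectin Lgals1. Fabp5 had 355, 474 and 471 TPM in CuO lungs and 466, 691 and 515 TPM in CuO_TTM lungs, against 167, 165 and 134 TPM in control lungs (difference 1.65 ± 0.21, limma adjusted p = 0.029). The median difference of the list was 1.18 in CuO and 1.56 in CuO_TTM, both against control. Gpnmb, a glycoprotein of lipid-laden macrophages, averaged 154 ± 89.0 TPM in exposed lungs (SD, n = 6) and 10.1 ± 5.79 TPM in control lungs (SD, n = 3). Its difference of 3.69 just missed the threshold (limma adjusted p = 0.0556), although all 6 exposed lungs lay above control. Acp5, an acid phosphatase of macrophages and osteoclasts, lies on no list and was called, at 1.75 ± 0.22 (adjusted p = 0.029, limma).

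Of 24 lysosomal genes tested, 0 were called, all 24 had a positive difference and 9 lay above control in all 6 exposed lungs, with a median of 1.06. The list level overlapped with control: it was 0.09 in CuO replicate 1 and 0.94 to 1.34 in the other 5, against -0.33 to 0.19 in control lungs. The cathepsin Ctsz averaged 399 ± 62.2 TPM in exposed lungs (SD, n = 6) and 152 ± 54.7 TPM in control lungs (SD, n = 3), with an adjusted p of 0.0556 in limma. Genes of alternative macrophage activation were not called either: their median was 0.35 over 15 genes, and Arg1 and Msr1 overlapped between exposed and control lungs. Markers of resident alveolar macrophages showed no common direction. Of 19 tested, 9 had a positive and 10 a negative difference, and the median of -0.28 changed sign in 5 of 23 alternative settings. The list level ran from -1.43 to 0.56 in exposed lungs and from -0.46 to 0.73 in control lungs. The cathepsin Ctsk was above control in all 6 exposed lungs and was not called. It was the only member above, 5.26% of the list against 6.99% of all tested genes, and 10.5% lay below, against 1.8%. Fabp1, a fatty acid carrier, was called lower. It had 1.46, 0.79 and 1.16 TPM in CuO lungs, 0.60, 0.88 and 2.5 TPM in CuO_TTM lungs and 24.1, 44.2 and 5.87 TPM in control lungs. Its difference was -3.20 ± 0.53 (limma adjusted p = 0.0464), and the 3 control lungs differed widely among themselves. Ear1, a ribonuclease with near-identical family members, differed by -3.32 with an adjusted p of 0.0556 in limma and is uncertain, since copies share reads.

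**Figure D3:**
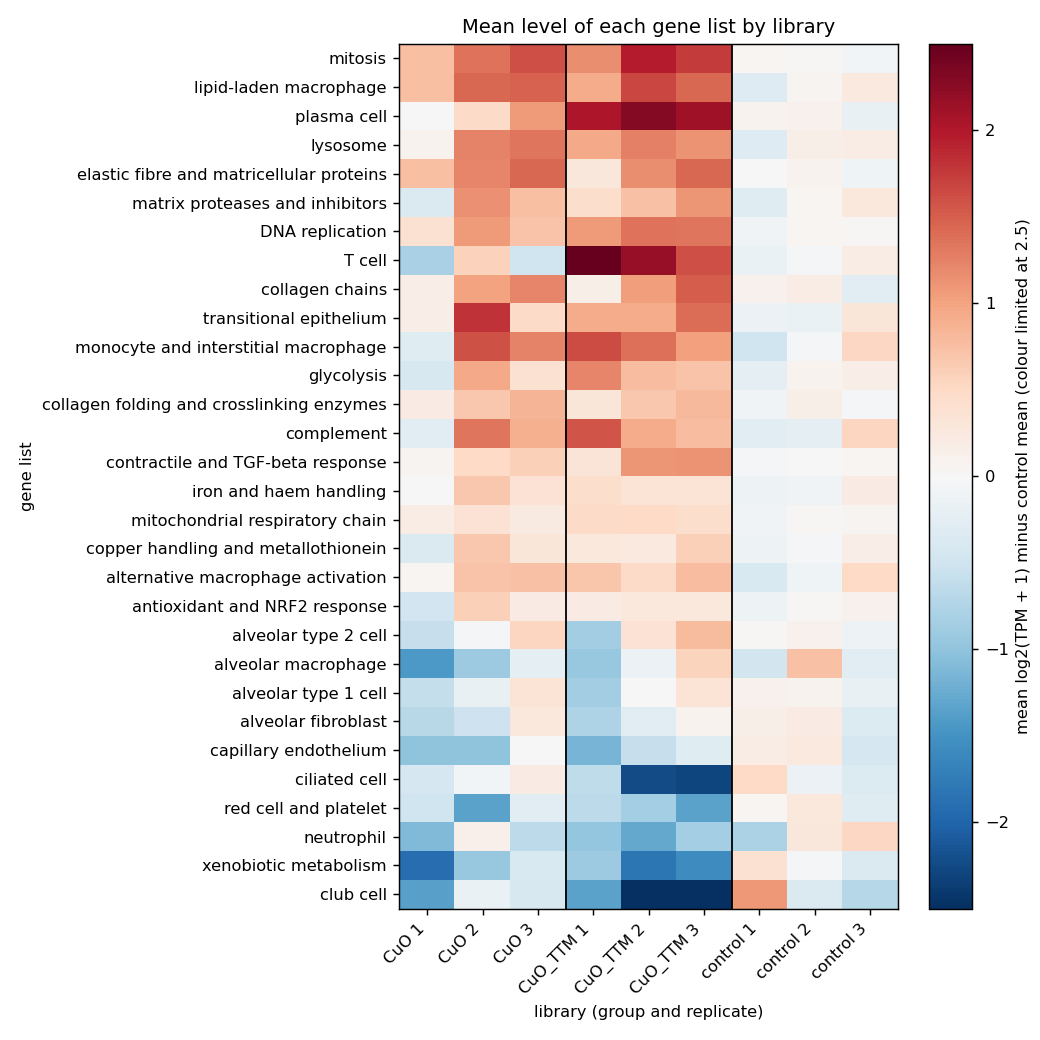
Mean log2(TPM + 1) of each gene list in each library minus the control mean, as colour, with the libraries in columns from CuO through CuO_TTM to control. The mitosis row reads 0.75 to 1.96 in the exposed libraries and -0.06 to 0.04 in the control libraries, and CuO 1 is the lowest of the exposed libraries in that row.

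Genes of cell division formed the largest group of calls. Of 26 mitosis genes tested, 9 were called higher, 0 were lower, and 18 lay above control in all 6 exposed lungs. All 26 had a positive difference, with a median of 1.5, which was 1.31 in CuO and 1.69 in CuO_TTM. Cdk1 (ENSMUSG00000019942), the kinase that starts mitosis, had 60.7, 67.2 and 74.2 TPM in CuO lungs and 49.4, 90.0 and 88.8 TPM in CuO_TTM lungs, against 17.3, 19.3 and 18.7 TPM in control lungs. No exposed lung came near the control range, and the difference was 1.88 ± 0.23 (limma adjusted p = 0.029). Its partner cyclin B1, encoded by Ccnb1, differed by 1.92 ± 0.26 and the mitotic kinase Plk1 by 1.68 ± 0.19 (limma adjusted p = 0.029 and 0.0232). Ube2c and Cdc20, which work in the complex that marks mitotic proteins for destruction, each differed by 1.92 ± 0.28 (limma adjusted p = 0.036 and 0.0362). Birc5, Top2a, Kif2c and Aurkb completed the 9.

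DNA replication genes showed smaller differences. Of 26 tested, 2 were called, none was lower, and 15 lay above control in all 6 exposed lungs. The median was 0.96, or 0.70 in CuO and 1.24 in CuO_TTM. The called genes were Tk1 and Tyms, which supply thymidine nucleotides, each at 1.56 (limma adjusted p = 0.029 and 0.0369). Several called genes outside both lists also serve division, and they were picked out after their values were seen. Psrc1, which binds spindle microtubules, averaged 11 ± 3.05 TPM in exposed lungs (SD, n = 6) and 1.95 ± 0.713 TPM in control lungs (SD, n = 3), a difference of 2.02 ± 0.25 (limma adjusted p = 0.029). The kinetochore protein Knstrn, the chromosomal passenger protein Cdca8, the kinesin Kif22, DNA ligase 1 (Lig1) and the clamp loader subunit Rfc5 were called higher too, by 1.17 to 1.91.

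The promoters of mitotic genes share short elements, shown here as a description of the windows only. Mitotic promoters are known for a cell cycle homology region (TTTGAA) near the start site and for CCAAT boxes upstream of it. Windows from 250 bases before to 50 bases after the RefSeq start (build GRCm38.p6) were searched for TTTGAA and CCAAT on both strands, that is also for TTCAAA and ATTGG. A window was at hand for 10 of the 11 called genes of the mitosis and DNA replication lists. TTTGAA occurred in 6 of the 10 and CCAAT in 6, with both in 5. Over all 27025 genes with a window, 20.2% held TTTGAA, 41.1% held CCAAT and 7.97% held both. Over the mitosis list, whether called or not, 16 of 21 genes held TTTGAA, 18 held CCAAT and 15 held both. As mitotic promoters are known for these elements, a share above that of all genes was fixed beforehand and adds no support. The part of the elements in the differences was not tested. The 5 called genes with both are Cdk1 (chr10:69352863-69353162, minus strand), Plk1 (chr7:122159185-122159484, plus strand), Cdc20 (chr4:118437294-118437593, minus strand), Ube2c (chr2:164769679-164769978, plus strand) and Top2a (chr11:99024140-99024439, minus strand). Each is printed 5′ to 3′ on the strand of the gene, with matches to either element on either strand in capitals. A match describes the letters in the window and is not a measured site.
Cdk1: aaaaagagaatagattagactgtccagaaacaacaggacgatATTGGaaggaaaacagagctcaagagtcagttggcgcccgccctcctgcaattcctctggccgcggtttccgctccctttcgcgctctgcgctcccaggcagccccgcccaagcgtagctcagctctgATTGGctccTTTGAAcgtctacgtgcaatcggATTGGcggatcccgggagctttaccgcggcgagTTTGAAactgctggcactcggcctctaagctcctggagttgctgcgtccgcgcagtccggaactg
Plk1: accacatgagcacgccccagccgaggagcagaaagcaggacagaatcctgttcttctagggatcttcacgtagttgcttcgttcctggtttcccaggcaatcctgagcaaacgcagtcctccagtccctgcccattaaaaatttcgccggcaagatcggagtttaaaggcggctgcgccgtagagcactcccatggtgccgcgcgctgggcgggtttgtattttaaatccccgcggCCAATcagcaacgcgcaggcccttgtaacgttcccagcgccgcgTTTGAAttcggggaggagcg
Cdc20: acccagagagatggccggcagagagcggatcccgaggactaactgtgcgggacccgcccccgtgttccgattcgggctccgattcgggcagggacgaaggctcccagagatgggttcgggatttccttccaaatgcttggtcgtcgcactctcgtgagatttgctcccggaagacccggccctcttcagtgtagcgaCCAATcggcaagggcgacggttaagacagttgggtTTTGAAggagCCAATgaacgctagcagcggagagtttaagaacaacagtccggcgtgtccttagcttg
Ube2c: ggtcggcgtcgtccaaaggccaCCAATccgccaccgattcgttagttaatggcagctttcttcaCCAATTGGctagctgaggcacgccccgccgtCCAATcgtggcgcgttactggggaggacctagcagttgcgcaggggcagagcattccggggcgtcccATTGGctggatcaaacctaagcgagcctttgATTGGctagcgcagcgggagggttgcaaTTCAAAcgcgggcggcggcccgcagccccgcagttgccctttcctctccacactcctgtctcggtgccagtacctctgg
Top2a: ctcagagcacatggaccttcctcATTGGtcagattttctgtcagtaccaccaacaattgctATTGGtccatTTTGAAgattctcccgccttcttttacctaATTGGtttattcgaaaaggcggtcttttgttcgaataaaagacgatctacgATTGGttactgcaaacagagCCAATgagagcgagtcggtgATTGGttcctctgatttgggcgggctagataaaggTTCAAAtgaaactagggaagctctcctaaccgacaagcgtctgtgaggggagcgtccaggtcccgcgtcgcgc

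Markers of other cell types stood beside the mitosis genes as follows. The mean level of the T cell list, relative to control, was -0.81, 0.58 and -0.49 in CuO lungs and 2.65, 2.18 and 1.62 in CuO_TTM lungs, against -0.16 to 0.18 in control lungs. The mitosis list was at 0.75, 1.35 and 1.61 in CuO lungs and at 1.16, 1.96 and 1.75 in CuO_TTM lungs. The part of T cells in the mitosis result was not tested. The monocyte and interstitial macrophage list ran from -0.31 in CuO replicate 1 to 1.63, against -0.50 to 0.52 in control lungs, and its part was not tested either.

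Both chains of type I collagen were called higher. Col1a1 (ENSMUSG00000001506), the main chain of type I collagen, had 223, 339.8 and 282 TPM in CuO lungs and 183, 307 and 300.15 TPM in CuO_TTM lungs, against 64.1, 58.6 and 53.1 TPM in control lungs. The lowest exposed lung was far above the highest control, and the difference was 2.17 ± 0.23 (limma adjusted p = 0.0187). Col1a2, the second chain, had 266, 490.2 and 451 TPM in CuO lungs, 271, 398 and 432 TPM in CuO_TTM lungs and 123, 127 and 105 TPM in control lungs. It differed by 1.66 ± 0.25 (limma adjusted p = 0.0369). These were the 2 called of 21 collagen chains tested, of which 7 lay above control in all 6 exposed lungs and 19 had a positive difference. The collagen list as a whole took 0.151% to 0.360% of TPM in exposed lungs and 0.101% to 0.121% in control lungs, with CuO replicate 1 and CuO_TTM replicate 1 the lowest of the exposed. That share is weighted to the abundant chains. In the mean log2 level, which weights all chains alike, these 2 lungs were at 0.16 and 0.15, within the control range of -0.28 to 0.19.

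No gene of the other matrix lists was called. Elastin (Eln) had 1159, 451 and 1552 TPM in CuO lungs and 349.8, 547 and 749.5 TPM in CuO_TTM lungs, against 127, 168 and 178.5 TPM in control lungs. Tenascin C (Tnc), a matrix protein of healing tissue, had 26.0, 34.8 and 29.6 TPM in CuO lungs, 10.8, 50.4 and 83.55 TPM in CuO_TTM lungs and 3.61, 4.00 and 2.83 TPM in control lungs. Neither overlapped with control and neither passed the threshold (limma adjusted p = 0.0556 for Eln and 0.0555 for Tnc). Of 24 elastic fibre and matricellular genes 0 were called, 8 lay above control in all 6 exposed lungs, and the median was 0.97. Of 22 enzymes that fold and crosslink collagen 0 were called and 6 lay above control, with a median of 0.63. The matrix proteases and their inhibitors had a median of 0.96 over 17 genes with 0 called and 4 negative, among them Mmp14 at 1.66, the macrophage elastase Mmp12 at 2.19 and Mmp9 at -1.16. Their list level overlapped with control, with CuO replicate 1 at -0.37 below every control lung. Acta2, the smooth muscle actin of myofibroblasts, did not separate: it averaged 193 ± 101 TPM in exposed lungs (SD, n = 6) and 115 ± 6.33 TPM in control lungs (SD, n = 3). The contractile and TGF-beta response list had 0 called, 15 of 16 genes positive and a median of 0.55. Of its genes 1 lay above control in all 6 exposed lungs (6.25%, against 6.99% of all tested genes). The list level was 0.06 to 1.13 in exposed lungs, lowest in CuO replicate 1, and -0.05 to 0.04 in control lungs.

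Single genes of stroma and epithelium were called as well. Igf1, a growth factor made by macrophages and fibroblasts, had 65.0, 36.3 and 39.02 TPM in CuO lungs and 15.1, 32.6 and 33.0 TPM in CuO_TTM lungs, against 8.17, 5.72 and 4.14 TPM in control lungs. It differed by 2.36 ± 0.33 (limma adjusted p = 0.0311). Cpxm1, a secreted carboxypeptidase-like protein, differed by 2.05 ± 0.31 and C1qtnf6, a secreted protein with a C1q-like domain, by 1.59 ± 0.21 (limma adjusted p = 0.0369 and 0.029). Cd248, a surface protein of stromal cells, differed by 1.23 ± 0.20 (limma adjusted p = 0.0424). Slc26a4, the anion exchanger pendrin of airway epithelium, had 8.96, 27.6 and 17.1 TPM in CuO lungs, 12.3, 16.95 and 21.8 TPM in CuO_TTM lungs and 1.83, 1.68 and 4.74 TPM in control lungs. It was higher by 2.31 ± 0.38 (limma adjusted p = 0.0472). Markers of the transitional epithelium that forms during alveolar repair had a median of 0.85 over 17 tested, with 0 called. Of these, 6 lay above control in all 6 exposed lungs, Krt8 and Krt18 among them (35.3%, against 6.99% of all tested genes). The list level overlapped with control, with CuO replicate 1 at 0.17 and control replicate 3 at 0.30.

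Fewer genes were lower. Inmt (ENSMUSG00000003477), a methyltransferase of alveolar fibroblasts, had 397, 272 and 672 TPM in CuO lungs and 516, 449 and 577 TPM in CuO_TTM lungs, against 1589, 2000.1 and 1589 TPM in control lungs. Every exposed lung was far below control, with a difference of -1.89 ± 0.28 (limma adjusted p = 0.0362). Gstm1, which conjugates glutathione to foreign compounds, had 197, 134 and 256 TPM in CuO lungs, 143, 113 and 150.0 TPM in CuO_TTM lungs and 445, 457 and 400.0 TPM in control lungs. It differed by -1.44 ± 0.23 (limma adjusted p = 0.0447). The remaining call was the predicted gene Gm14964, at -1.53. As fewer than 5 were called lower, those next by p-value are given as values: the glutamate receptor Gria1 differed by -1.48, the platelet tubulin Tubb1 by -1.28, the transcription factor Klf15 by -1.47 and the monooxygenase Fmo1 by -1.18 (limma adjusted p = 0.0514, 0.0523, 0.0556 and 0.0563).

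Gstm1 was the only call among 23 genes of xenobiotic metabolism, of which 22 had a negative difference and 9 lay below control in all 6 exposed lungs. The median was -1.44, or -1.19 in CuO and -1.41 in CuO_TTM. The mean level of the list was -1.90, -0.95 and -0.39 in CuO lungs and -0.91, -1.80 and -1.57 in CuO_TTM lungs, against 0.39, -0.03 and -0.36 in control lungs. CuO replicate 3 lay just under control replicate 3. Club cell markers moved with them, with a median of -1.46 over 12 genes, 0 called and 3 below control in all 6 exposed lungs. Their mean level was -1.36, -0.16 and -0.41 in CuO lungs and -1.34, -3.41 and -2.86 in CuO_TTM lungs, against 1.09, -0.37 and -0.72 in control lungs. The club cell list thus overlapped between exposed and control lungs, it has 1 gene in common with the xenobiotic list, Cyp2f2, and its part in the lower xenobiotic genes was not tested. Scgb1a1 itself took 6.42 ± 5.12% of TPM in exposed lungs (SD, n = 6) and 19.5 ± 2.69% in control lungs (SD, n = 3). On the log2 scale it differed by -2.80 ± 0.99 and was not called (limma adjusted p = 0.239).

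**Figure D4:**
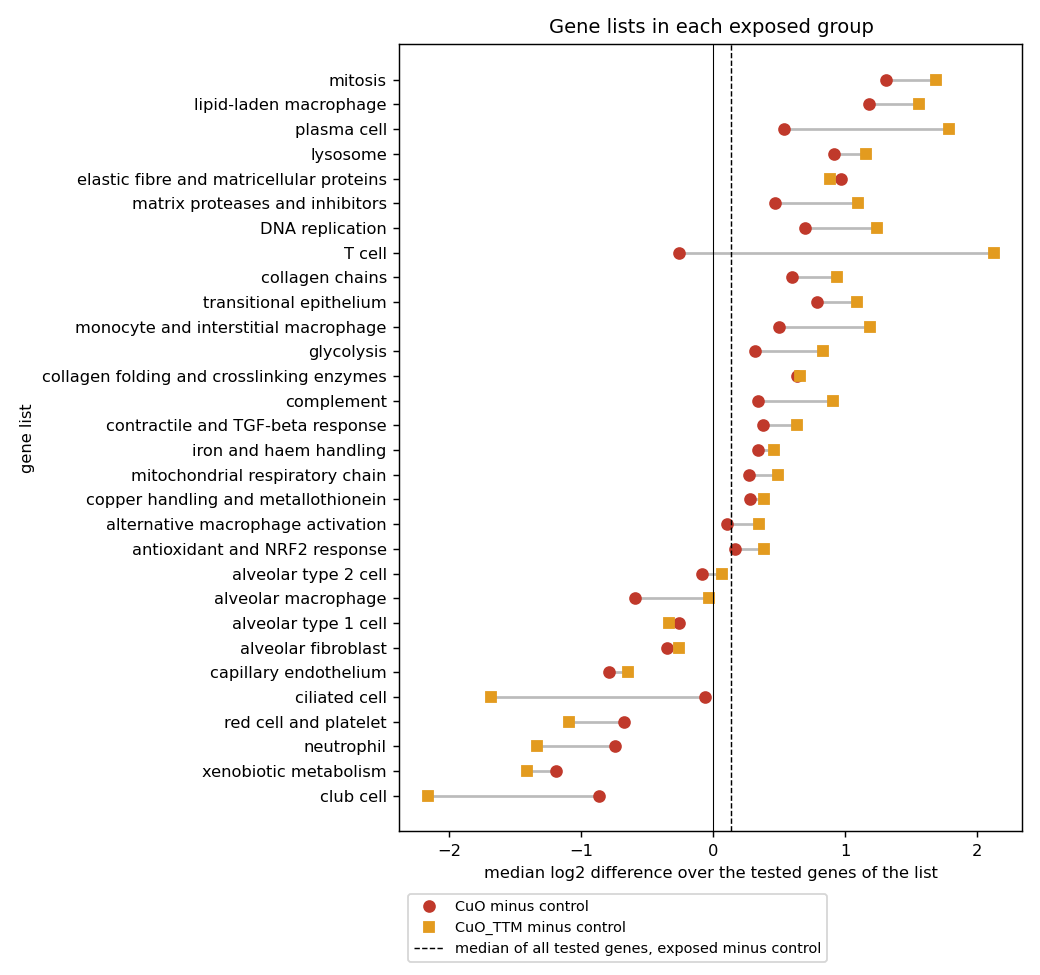
Median log2 difference from control over the tested genes of each list, in CuO lungs (circles) and CuO_TTM lungs (squares), with the median of all genes, 0.14, as a dashed line. The mitosis list lies at 1.31 and 1.69 and the xenobiotic list at -1.19 and -1.41, while the T cell list lies at -0.26 and 2.13.

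Of 21 genes that handle copper, 0 were called on day 7, and the median difference was 0.37. A positive difference was seen for 17, and Commd1, Atox1 and Ccs lay above control in all 6 exposed lungs, by 0.75, 0.64 and 0.31. That is 14.3% of the list, against 6.99% of all tested genes, and 4.76% lay below, against 1.8%. No conclusion is drawn from so few genes. The list level overlapped with control, with CuO replicate 1 lowest at -0.36. Metallothioneins, small proteins that bind copper and zinc, overlapped with control. Mt1 had 281, 261 and 142 TPM in CuO lungs, 239, 122 and 244 TPM in CuO_TTM lungs and 74.7, 80.25 and 256 TPM in control lungs, and control replicate 3 held the highest Mt2 value of the controls as well. The copper importer Slc31a1 differed by -0.16 with a changing sign between settings, while the exporter Atp7b was below control in all 6 exposed lungs. Atp7b averaged 3.43 ± 1.85 TPM in exposed lungs (SD, n = 6) and 7.47 ± 1.14 TPM in control lungs (SD, n = 3), with CuO replicate 3 at 6.67 just under the lowest control at 6.70 (limma adjusted p = 0.214).

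Among 23 antioxidant genes 0 were called and the median was 0.29. Ferritin light chain (Ftl1), which stores iron, had 4326, 4213 and 3788 TPM in CuO lungs and 3557, 3772 and 3438 TPM in CuO_TTM lungs, against 1794, 2258 and 1879 TPM in control lungs. The values of the exposed lungs were close together and clear of control, with a difference of 0.96 ± 0.18 that missed the threshold (limma adjusted p = 0.0563). Haem oxygenase (Hmox1), which frees iron from haem, differed by 1.22 ± 0.28, with all 6 exposed lungs above control (limma adjusted p = 0.1). Iron genes had a median of 0.45 over 19 tested, glycolysis genes 0.66 over 17 and respiratory chain genes 0.40 over 22, with 0 called in each. The shares above control in all 6 exposed lungs were 26.3%, 11.8% and 31.8%, against 6.99% of all tested genes. The iron and glycolysis levels overlapped with control. The respiratory chain level was 0.18 to 0.50 in exposed lungs and -0.09 to 0.07 in control lungs. Its median fell to 0.15 after quantile normalization.

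Among cell types of the alveolus, no epithelial marker was called. Alveolar type 2 markers had a median of 0.01 over 18 genes, type 1 markers -0.34 over 14, and neither list had a gene that separated all exposed from all control lungs. Outside the alveolus, ciliated cell markers had a median of -0.06 in CuO and of -1.68 in CuO_TTM, both against control. Their list level was -2.23 and -2.29 in CuO_TTM replicates 2 and 3, the libraries low in Scgb1a1. It was -0.63 in CuO_TTM replicate 1, -0.42 to 0.21 in CuO lungs and -0.34 to 0.49 in control lungs. Capillary endothelium had a median of -0.72 over 16 genes with 0 called, and its endothelin receptor Ednrb averaged 13 ± 5.11 TPM in exposed lungs (SD, n = 6) and 37.6 ± 2.86 TPM in control lungs (SD, n = 3). Neutrophil markers had a median of -1.17 over 16 genes and red cell and platelet markers -0.96, with 0 called in each. These list levels overlapped with control. The capillary list ran from -1.17 to -0.01 in exposed lungs and from -0.42 to 0.24 in control lungs. For neutrophils the ranges were -1.27 to 0.13 and -0.80 to 0.52, and for red cells and platelets -1.33 to -0.26 and -0.31 to 0.27.

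The difference between the 2 exposed groups was tested directly, since a call of the pooled comparison can rest on either of them. In CuO_TTM against CuO, 107 of 15487 genes were higher (0.691%) and 3 lower (0.0194%). Of the 54 genes called in exposed against control, 6 were also called here, and these 6 were antibody genes. Igkc, the constant part of the kappa light chain, had 638, 408 and 842 TPM in CuO lungs and 4522, 3988 and 2472 TPM in CuO_TTM lungs, against 364, 327 and 343 TPM in control lungs. It was above control in every exposed lung and far higher with TTM, and the difference between CuO_TTM and CuO was 2.55 ± 0.32 (limma adjusted p = 0.0156). For the 6, Ighg3, Igkv8-19, Ighg2b, Igkc, Ighg1 and Iglc1, that difference ran from 2.13 to 3.10. Antibody genes share reads between near-identical segments, so single segments are uncertain, and all antibody genes together took 0.119% to 1.81% of TPM in exposed lungs and 0.146% to 0.199% in control lungs.

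Of the other 48 called genes, 0 differed between CuO_TTM and CuO at the threshold. Their differences ran from -0.81 to 1.11 with a median of 0.29, against 0.19 over all genes. For 44 of them the 95% interval held 0, and for Lgals1, Lig1, Cdca5 and Rfc5 it did not. The intervals show how large a difference the data leave room for: it was -0.11 (95% interval -0.72 to 0.49) for Col1a1, 0.13 (-0.47 to 0.73) for Cdk1 and -0.06 (-1.33 to 1.21) for Trem2. For Trem2 a difference of more than 1 in either direction thus lay within the interval. Ms4a7 had the highest difference of the 48, at 1.11 (-0.01 to 2.24), and Igf1 the lowest, at -0.81 (-1.66 to 0.04).

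**Figure D5:**
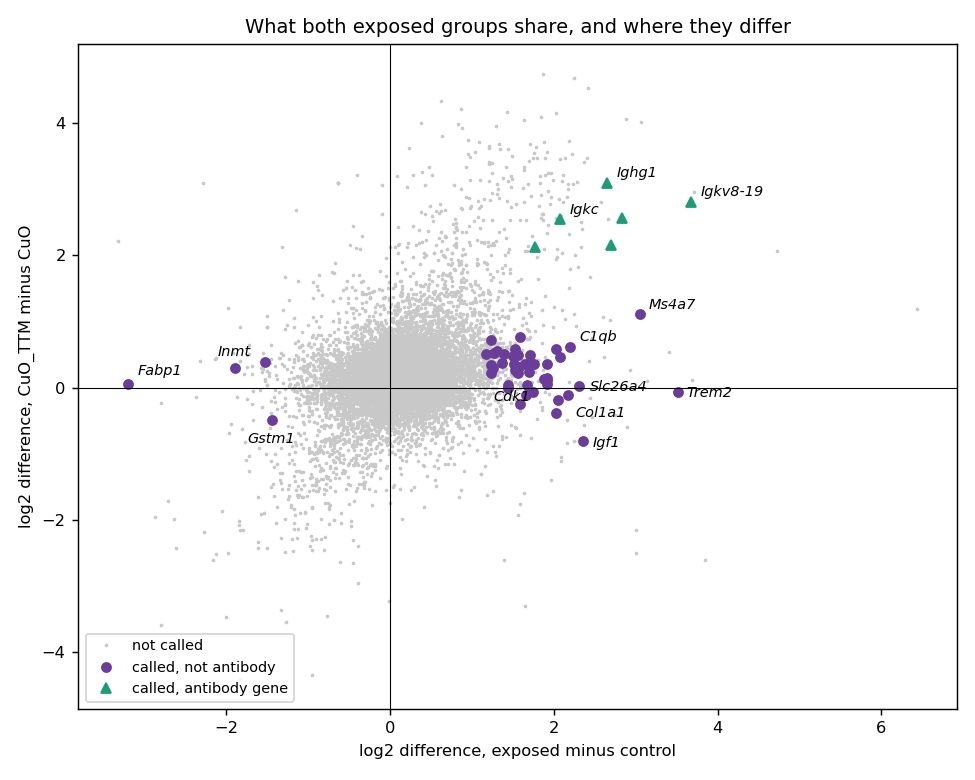
Each tested gene by its log2 difference between exposed and control lungs (horizontal axis) and between CuO_TTM and CuO lungs (vertical axis), with the 48 called genes that are not antibody genes as circles and the 6 called antibody genes as triangles. The circles lie between -0.81 and 1.11 on the vertical axis and the triangles between 2.13 and 3.10.

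For some genes the pooled difference averaged 2 unlike groups. Cd3g, a subunit of the T cell receptor complex, differed by -0.04 in CuO and by 2.99 in CuO_TTM, both against control, and its pooled difference of 1.48 was not called (limma adjusted p = 0.105). The difference between the exposed groups was 3.03 ± 0.40 (limma adjusted p = 0.0171), and 13 of the 20 T cell genes tested were called higher in that comparison. Nnat, which encodes the membrane protein neuronatin, had 96.0, 43.8 and 72.9 TPM in CuO lungs, 12.04, 18.9 and 21.55 TPM in CuO_TTM lungs and 11.2, 13.5 and 8.51 TPM in control lungs. Its difference between CuO_TTM and CuO was -1.93 ± 0.34 (limma adjusted p = 0.0429), and the pooled difference of 1.56 lies between 2.53 in CuO and 0.60 in CuO_TTM.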

How the data were processed

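The deposited data are TPM, computed by the authors, for 57010 Ensembl gene identifiers in 9 libraries, with 2 decimals. The processing notes of the submitters list the build GRCm39 and, without versions or order, HISAT2, RSEM, fastp and DESeq2. TPM keep no depth, so no interval for counting error was computed and no count model was fitted. Symbols came from a reference table of gene names, which matched 52029 identifiers. No genome of the build of the table was used, so genes are given without coordinates, and the promoter windows carry their own build. The members and gene lists were chosen with earlier results of these data known.

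Values were transformed to log2(TPM + 1), which understates the change of genes of low abundance. Genes that reached 1 TPM in 3 or more libraries were tested. In limma 3.58.1 (R 4.3.3) each group had its own mean in a fit of the 9 libraries with a trend on abundance, and the mean of the CuO and CuO_TTM means was set against control. P-values measure the spread between mice and were adjusted over all tested genes after Benjamini and Hochberg, with 0.05 as threshold. The procedure was tested on simulated data in which genes varied independently and every library had the same spread. The libraries here differ in spread, with quality weights from 0.09 to 5.76. The simulation therefore does not bear on how the calls turn on single libraries. The 52 lists hold 871 genes, of which 816 were tested, and lists were described by counts and medians without a test. List levels are the mean log2 difference from the control mean.

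Genes named are first the 12 largest called rises, the called falls with at least 1 TPM on average and the 8 lower genes of smallest p. Predicted genes and antibody genes were left out of these. Further named are a fixed set and the 2 genes of smallest p in each described list, which for plasma cells are the antibody genes Ighg2b and Igkc. The other antibody genes, the predicted gene and other called or listed genes in the text were picked after their values were seen. Alternatives were other scalings, pseudocounts, filters and fits, library weights, and leaving out libraries. Replicate numbers were not used as pairs in the main fit. Correlations of deviations between same-numbered libraries ran from -0.37 to 0.29. Libraries of different number were not compared in this way, so these values cannot tell whether mice were paired.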

Additional observations from a re-analysis of the deposited data

Results flagged for a closer look

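Of 115 values examined for a library far from the other 5 exposed ones, 6 stood out, where chance gives about 1 in 20. All 6 belong to CuO replicate 1. It had the lowest Pgam1, at 84.48 TPM against 137.45 to 175.46 in the other exposed lungs, and the highest Atp5b, at 586.98 against 432.76 to 482.79. Its mean level was lowest for the lysosome list, at 0.09 against 0.94 to 1.34, for the monocyte and interstitial macrophage list, at -0.31 against 1.03 to 1.63, and for the antioxidant list, at -0.48 against 0.20 to 0.60. It also had the fewest genes at 1 TPM or more, 13900 against 14800 to 15000.

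Of 108 genes examined for a difference between CuO_TTM and CuO lungs, 12 passed the limma threshold over all genes, so their pooled value does not stand for both exposed groups. Over all 15487 tested genes the same threshold called 0.691% higher and 0.0194% lower. The 108 are the named and the called genes, in part chosen with earlier results known. Thus 12 of 108 is not a rate for genes at large. The antibody genes were higher in CuO_TTM by 2.57 (Ighg2b), 2.55 (Igkc), 2.16 (Ighg3), 2.81 (Igkv8-19), 3.10 (Ighg1) and 2.13 (Iglc1) on the log2 scale. The T cell genes were higher by 3.03 (Cd3g), 2.20 (Cd5) and 3.65 (Cd8a), and the macrophage receptor Marco by 3.63. Thy1, which lies on the contractile and TGF-beta response list and not on the T cell list, was higher by 2.40. Nnat was lower in CuO_TTM, at -1.93.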

How the results depend on the processing

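Against 50 higher and 4 lower calls, quantile normalization gave 134 and 60, median-ratio scaling 83 and 30, TPM rescaled without Scgb1a1 23 and 6, no filter 14 and 4, a mean of at least 5 TPM 81 and 7, and library quality weights, which put 0.09 on CuO replicate 1 and 5.76 on CuO_TTM replicate 2, 3339 and 582. A replicate block gave 6 and 1 calls, of which 5 were among the 54. The fit without CuO_TTM replicates 2 and 3 gave 0 and 0, and that without CuO replicate 1 as well gave 186 and 16. Leaving out each library in turn gave 0 to 1177 higher and 0 to 90 lower calls. A minimum difference of 1 left the calls unchanged, which was fixed beforehand, as their smallest absolute difference was 1.17 (Rfc5). A pseudocount of 0.1, no trend, robust moderation and a single mean for the 6 exposed libraries each left both counts within 1.5 times, but the single mean shared only 39 of the 54 calls. It lost Ighg2b, Igkc, Lgals1, C1qc and Gstm1 among the named genes and gained Gria1, Tubb1, Tnc, Gpnmb and Ctsz. Genes with all 6 exposed libraries above control numbered 1082, and 731 after quantile normalization, 731 after median-ratio scaling and 555 without Scgb1a1. With libraries left out, only those that remain are compared, and fewer libraries separate more easily. Such counts are therefore not comparable with 1082. They were 3477 without CuO replicate 1 and CuO_TTM replicates 2 and 3, and 1090 to 3196 with a single library left out. Those below numbered 279, and 739 after quantile normalization, 735 after median-ratio scaling, 637 without Scgb1a1, 431 with no filter, 175 at a mean of at least 5 TPM, 393 without CuO_TTM replicates 2 and 3, 489 without CuO replicate 1 as well, and 300 to 691 with a single library left out. For the genes below control, too, counts with libraries left out cover only the libraries that remain. Beyond this, the cause of these shifts was not tested. Of the named genes, Sftpc, Marco, Slc31a1 and Acta2, none of them called, changed sign. Sftpc was at 0.42 after quantile normalization and -0.28 to 0.16 without a single library. Marco was at -0.01 with a pseudocount of 0.1, at -0.41 without CuO_TTM replicates 2 and 3, at -0.27 without CuO replicate 1 as well, and -0.05 to 0.60 without a single library. Slc31a1 was at 0.16 under library weights and -0.29 to 0.10 without a single library, and Acta2 at -0.01 without CuO replicate 1 and CuO_TTM replicates 2 and 3. Depth is unknown, and 3 mice per group limit precision.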

Other observations

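Inflammatory gene groups lay unevenly across the exposed lungs. Of 27 chemokine ligands 0 were called, 22 had a positive difference, and the median was 0.67 in CuO and 1.00 in CuO_TTM, but the list level ran from -0.46 to 2.15 in exposed lungs and from -0.64 to 0.90 in control lungs. Interferon-stimulated genes had a pooled median of 0.06 over 20 genes that changed sign in 8 of 23 settings, and the list level ran from -1.76 in CuO replicate 1 to 1.94 in CuO replicate 2. Genes of antigen presentation by MHC class II had a median of -0.03 in CuO and 0.95 in CuO_TTM, both against the same controls. Control replicate 3 had the highest level of the controls for the chemokine list, at 0.90, the cytokine list, at 1.00, and the interferon list, at 1.10. Immediate early genes, with a median of -0.09 over 20, and heat shock and unfolded protein genes, at -0.16 over 22, had 0 calls each.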
